A study of Homo sapiens with 4 samples.

Results

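Small nucleolar RNAs (snoRNAs) are short RNAs that work in the nucleolus as the guide of a protein complex called a snoRNP. Box C/D snoRNAs, whose symbols start with SNORD, direct 2′-O-methylation of ribosomal and spliceosomal RNA, and box H/ACA snoRNAs, whose symbols start with SNORA, direct pseudouridylation. A few members of either class are needed to cut the ribosomal RNA precursor rather than to modify it. In human cells most snoRNAs lie in introns of host genes, are released when the intron is spliced and trimmed, and carry no poly(A) tail. The members described here were chosen by symbol and by measured level: a SNORA or SNORD symbol followed by a number, with at least 1 TPM in at least 2 of the 4 libraries. TPM (transcripts per 1000000) is a read number divided by the gene's length and scaled to a total of 1000000 per library. Of 59409 symbols in the table, 448 had such a name, 152 SNORA and 296 SNORD, and 160 of them passed the level, 65 SNORA and 95 SNORD. Another 233 were listed at 0 in all 4 libraries.

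The RNA was polyadenylated RNA of 786-O cells, an established human renal carcinoma line, sequenced to compare cells with and without DEK, a chromatin protein. The 2 control libraries, labelled negative control and wild type, carry Cas9 in their descriptions, and a Cas9-expressing clone was made with LentiCas9-Blast virus. The 2 knockout libraries come from DEK knockout cells made by infecting Cas9-expressing cells with LentiGuide-Puro virus carrying DEK gRNAs, followed by single-cell sorting. All cells were grown in the same medium with serum. The Cas9 transgene is thus shared by both groups as labelled, and the guide virus and the sorting are stated for the knockouts alone. The labels do not say which clone or culture gave each library, so a p-value reflects no more than how far these libraries spread, possibly for technical reasons. DEK itself measured 95.02 and 76.3 TPM in the control libraries and 31.4 and 15.7 TPM in the knockout libraries (log2 fold change -1.89 ± 0.33 SE, limma adjusted p = 0.0304). Estimated depth was 38.9 and 39.6 (in units of 1000000 reads) for controls 1 and 2 and 35.9 and 40.1 for knockouts 1 and 2. Of the markers of the line, PAX8 was at 147 TPM in the controls and 150 TPM in the knockouts on average, VIM at 7215 to 8346 TPM over the 4 libraries, and PAX2 (23.5 to 10.7 TPM) and CDH6 (117 to 82.8 TPM) were lower in the knockouts (limma adjusted p = 0.0270 and 0.0384).

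The following sequences, from GENCODE release 29 on GRCh38, let the marks of the 2 classes be seen in the members that the results turn on. SNORA61, SNORA73A, SNORA73B, SNORA64 and the first 5 SNORD members were taken from those with the most reads past the threshold, out of members at a single locus with a model of at most 300 bases. SNORA10, which shares a host with SNORA64, SNORD2 and SNORD45C, which had the lowest log2 fold changes of the called members, and SNORD49A, which was higher, were added after their values were seen. They are shown 5′ to 3′ on the strand of the RNA, with T for U. Capitals mark the letters TGATG of box C and CTGA of box D in the SNORD members, and the letters ACA that stand 3 bases from the 3′ end in the SNORA members.
SNORA61: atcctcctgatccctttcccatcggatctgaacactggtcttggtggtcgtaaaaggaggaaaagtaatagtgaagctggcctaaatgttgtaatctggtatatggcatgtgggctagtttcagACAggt
SNORA73A: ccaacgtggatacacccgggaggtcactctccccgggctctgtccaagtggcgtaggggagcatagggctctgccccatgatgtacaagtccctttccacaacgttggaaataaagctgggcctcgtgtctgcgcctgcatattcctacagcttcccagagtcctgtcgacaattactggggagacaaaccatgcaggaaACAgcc
SNORA73B: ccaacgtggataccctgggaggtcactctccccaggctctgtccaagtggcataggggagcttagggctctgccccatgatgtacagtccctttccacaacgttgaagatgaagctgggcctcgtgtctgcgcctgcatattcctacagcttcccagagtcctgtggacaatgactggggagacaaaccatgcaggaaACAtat
SNORA64: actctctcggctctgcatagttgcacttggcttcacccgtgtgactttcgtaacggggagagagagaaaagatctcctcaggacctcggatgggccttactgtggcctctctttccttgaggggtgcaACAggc
SNORA10: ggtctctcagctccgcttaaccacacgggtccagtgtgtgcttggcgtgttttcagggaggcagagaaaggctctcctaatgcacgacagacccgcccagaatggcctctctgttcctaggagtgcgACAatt
SNORD96A: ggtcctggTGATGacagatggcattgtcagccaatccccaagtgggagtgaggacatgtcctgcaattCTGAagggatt
SNORD17: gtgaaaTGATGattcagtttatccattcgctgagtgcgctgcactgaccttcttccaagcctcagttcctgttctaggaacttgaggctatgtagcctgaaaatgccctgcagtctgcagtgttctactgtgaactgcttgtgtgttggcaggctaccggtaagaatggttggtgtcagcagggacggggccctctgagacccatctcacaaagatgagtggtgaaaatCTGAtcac
SNORD84: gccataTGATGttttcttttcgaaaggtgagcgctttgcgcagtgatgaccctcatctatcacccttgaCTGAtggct
SNORD62B: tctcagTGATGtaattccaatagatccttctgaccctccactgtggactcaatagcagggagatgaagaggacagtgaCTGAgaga
SNORD10: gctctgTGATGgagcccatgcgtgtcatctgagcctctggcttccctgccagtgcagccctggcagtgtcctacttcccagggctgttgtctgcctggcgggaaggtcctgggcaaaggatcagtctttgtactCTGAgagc
SNORD2: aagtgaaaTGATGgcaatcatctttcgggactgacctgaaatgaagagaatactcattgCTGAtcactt
SNORD45C: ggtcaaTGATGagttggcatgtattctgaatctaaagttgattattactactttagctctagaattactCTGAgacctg
SNORD49A: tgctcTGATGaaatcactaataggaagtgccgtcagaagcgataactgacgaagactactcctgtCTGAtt

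The annotated sequences carried the marks of the class that the symbols name. TGATG lay within the first 25 bases of 90.5% of the SNORD members and 1.54% of the SNORA members, against 82.4% of all 296 SNORD symbols. CTGA lay within the last 20 bases of 95.8% of SNORD members and 91.9% of all SNORD symbols. ACA at 3 bases from the end was present in 78.5% of SNORA members and 73.0% of all 152 SNORA symbols. The strand of the RNA alone was searched, and the windows for TGATG and CTGA do not overlap in RNAs of these lengths. The SNORD models had a median of 78 bases and the SNORA models of 134 bases. SNORA73A and SNORA73B were identical at 93.2% of aligned positions, and 28 members had another snoRNA symbol of at least 90% identity, so reads of such pairs may be assigned to the wrong copy.

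Few reads stood behind most members. The deposited values fell on steps that correspond to whole reads for all 160 members, to within 0.02 of a read, which gave the read numbers used here. A single read in a SNORD of median length was worth 1.22 to 1.38 TPM, and in a SNORA of median length 0.711 to 0.804 TPM, so the choice by level admitted SNORD members with 1 read in 2 libraries. Read numbers over the 4 libraries ran from 2 to 512 with a median of 27. There were 31 members with under 10 reads, 95 with at least 20 and 31 with at least 100, and 127 had a read in every library. At the edge of the rule, SNORD62 entered with 1 read in control 2 and 1 in knockout 2, and SNORD87 with 1 and 2 reads in the controls and 0 in the knockouts. Just outside it were SNORA74A, with 2, 2, 0 and 1 reads, and SNORA62, whose 8, 9, 6 and 14 reads were divided by the pooled length of its copies.

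Both classes were lower in the knockouts as a sum. The SNORA members added up to 833 and 759 TPM in the controls and to 623 and 521 TPM in the knockouts. Both knockouts thus lay below both controls, and the knockout mean was 0.719 ± 0.103 of the control mean (SD propagated from 2 libraries per group), or 1.39-fold lower. The SNORD members added up to 1578 and 1441 TPM in the controls and to 1279 and 1197 TPM in the knockouts. Here too the groups did not overlap, and the ratio was 0.820 ± 0.065, or 1.22-fold lower. As reads, the SNORA members had 1311 and 1271 in the controls, against 972 and 958 in the knockouts, and the SNORD members had 1367 and 1342 against 1011 and 1057. In bulk RNA, fewer cells with these RNAs and less of them per cell cannot be told apart. The smallest p of an exact permutation test of 2 against 2 libraries is 0.333, and none is given for the sums. Removing the member with the highest mean TPM changed the ratios little: without SNORA40 the SNORA ratio was 0.732 and without SNORD96A the SNORD ratio was 0.830. Members that share a host were not removed together. Several of the best counted SNORA members lie in TAF1D, RCC1 or SNHG12, and how far such loci carry the sums was not tested.

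**Figure D1:**
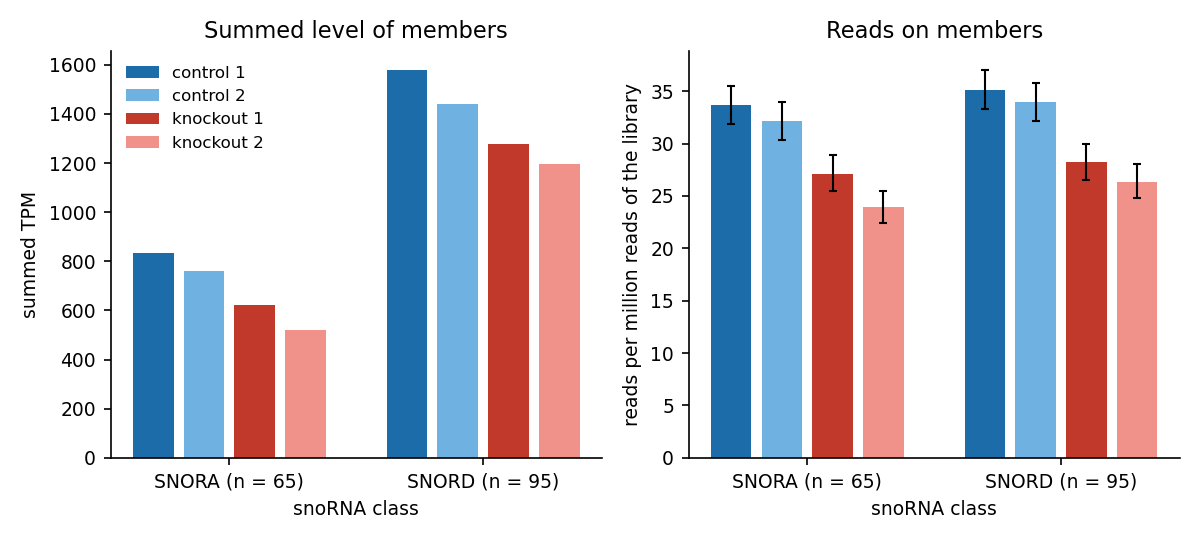
Summed TPM (left) and reads per 1000000 reads of the library (right) of the 65 SNORA and 95 SNORD members in each library; bars on the right are exact 95% Poisson intervals, which cover counting error only. For both classes and both scales the knockouts stand below the controls, at 623 and 521 against 833 and 759 TPM for SNORA.

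Gene by gene, 26 members were lower and 4 higher in the knockouts at a limma adjusted p under 0.05 over all 15815 genes tested. Of the SNORA members 12 of 65 passed (18.5%), 9 lower and 3 higher. Of the SNORD members 18 of 95 passed (18.9%), 17 lower and 1 higher. Among all genes tested 17.7% passed, so the share of members past the threshold was near that of the background. The directions were less even: 13.8% of SNORA and 17.9% of SNORD members were lower against 8.67% of all genes, and 4.62% and 1.05% were higher against 9.06%. Both knockouts lay below both controls in 26 SNORA (40.0%) and 29 SNORD members (30.5%) against 39.0% of all genes, so non-overlap in this direction was no more frequent among members. Both knockouts lay above both controls in 6 members of each class against 29.2% of all genes. The median log2 fold change was -0.32 for SNORA and -0.19 for SNORD members, against -0.06 for all genes. Among the other 576 tested genes of at most 300 bases, 43 were lower and 31 higher, with a median of -0.02. The level that chose the members entered these counts: 8 members reached it through the controls alone, of which 6 were called lower, and 2 through the knockouts alone, of which SNORA68B was called higher. The number of calls also changed with the libraries included. Leaving out either control removed nearly all of the calls, and leaving out either knockout added calls, among members and all genes alike. In such a fit the lone library is assumed to vary like the other group. The change in calls therefore does not show that they depend on a single library. The median log2 fold change of tested SNORA and SNORD members was -0.36 and -0.37 without control 1, against -0.04 for all genes. Without control 2 it was -0.42 and -0.30, against -0.08. Without knockout 1 it was -0.41 and -0.25, against -0.06, and without knockout 2 it was -0.23 and -0.14, against -0.07. Without the filter on low values limma called no member, and 0 lower and 26 higher of all 31270 genes tested. In that fit 39 members had an unadjusted p under 0.05.

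**Figure D2:**
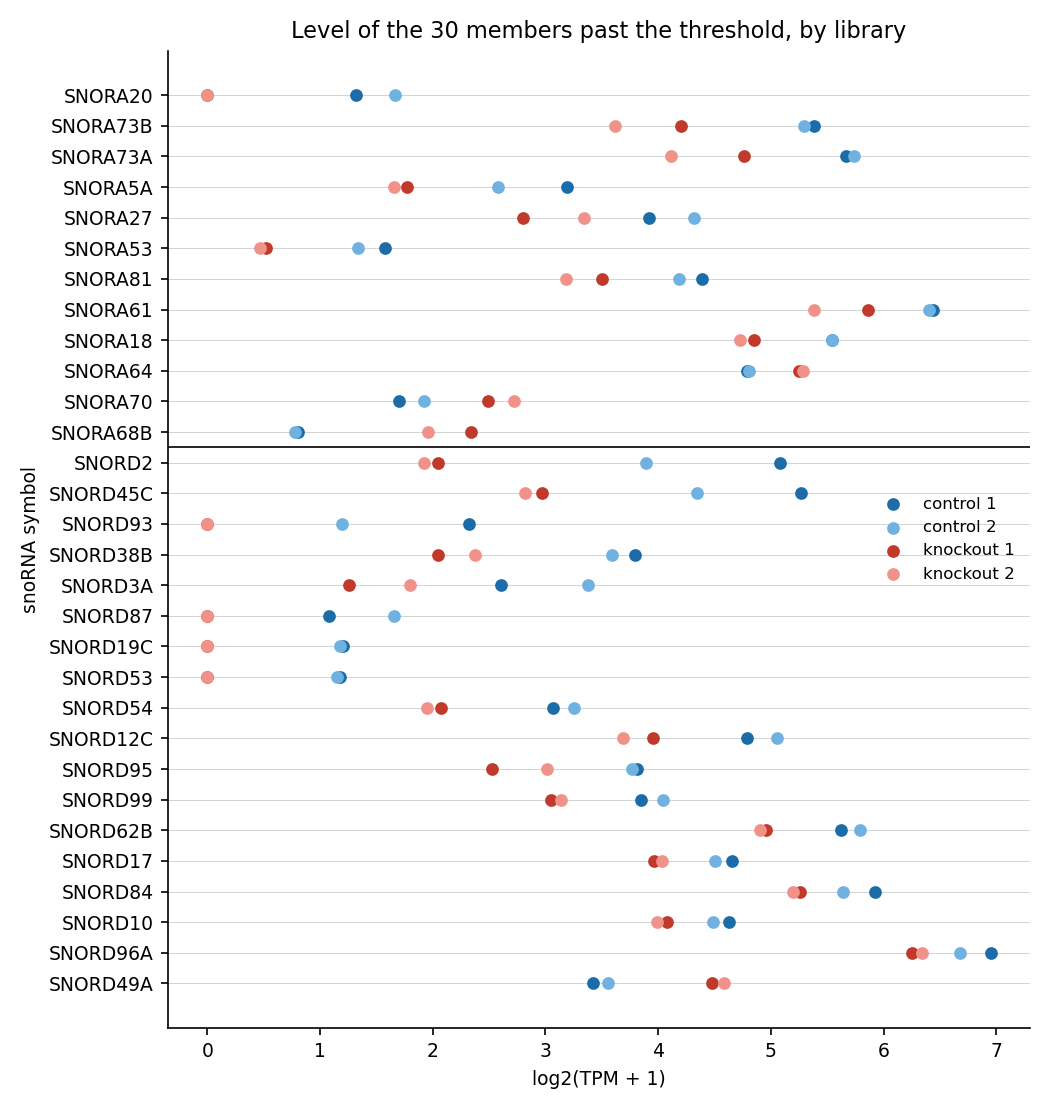
Level of each of the 30 members past the threshold as log2(TPM + 1) on the horizontal axis, with 1 point per library; SNORA above the line and SNORD below it. Within a row the knockouts and the controls never overlap, and 5 rows have both knockouts at 0.

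**Figure D3:**
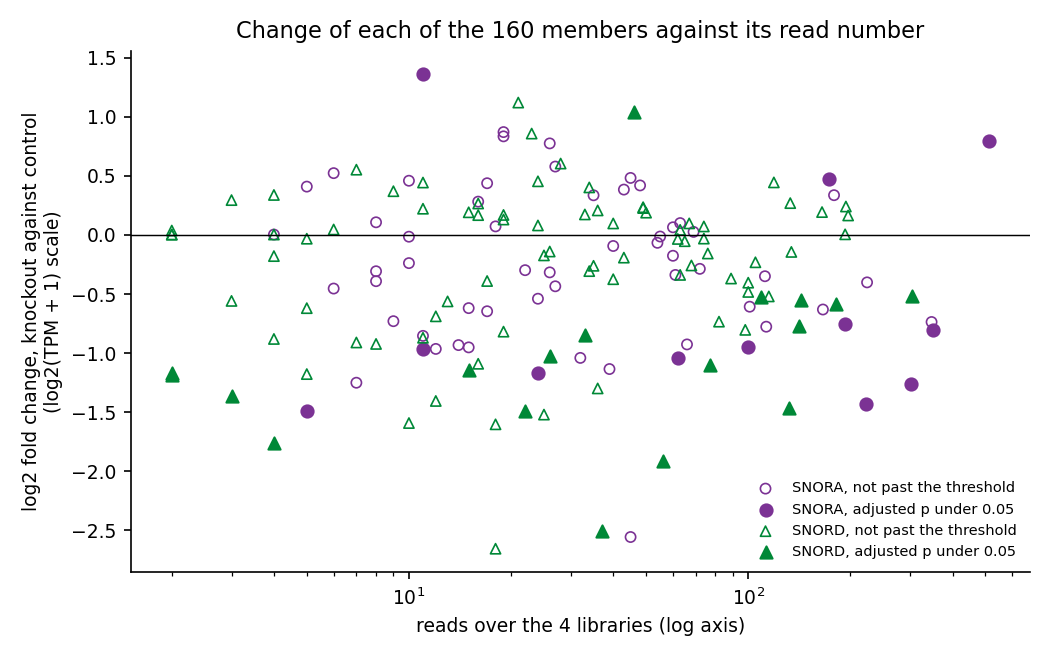
Log2 fold change on the log2(TPM + 1) scale against the reads of each member over the 4 libraries (log axis); filled symbols passed the threshold. Of the 31 members with at least 100 reads 13 were called (41.9%), and of the 31 with under 10 reads 5 were called (16.1%), against 17.7% of all genes tested.

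Counting error can be set beside each call. The ratio of reads, knockout over control and scaled for each library's step, had an exact 95% counting interval that held 1 for 11 of the 30 called members. Among them were the 5 members called lower with no knockout read at all, SNORA20 (5 control reads), SNORD93 (4), SNORD87 (3), SNORD19C (2) and SNORD53 (2). For these 5 members a difference was not detectable at this depth. The other called members whose interval held 1 were SNORA53, SNORD54, SNORD95, SNORD99, SNORD10 and SNORA68B, with 11, 15, 26, 33, 109 and 11 reads. Conversely, 15 members that did not pass the test had an interval that left out 1, and all 15 were lower. Examples, chosen after their values were seen, are SNORA32 with 29, 10, 6 and 0 reads and SNORD5 with 14, 3, 1 and 0 reads. In both the controls differed from each other, with 29 against 10 and 14 against 3 reads.

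**Figure D4:**
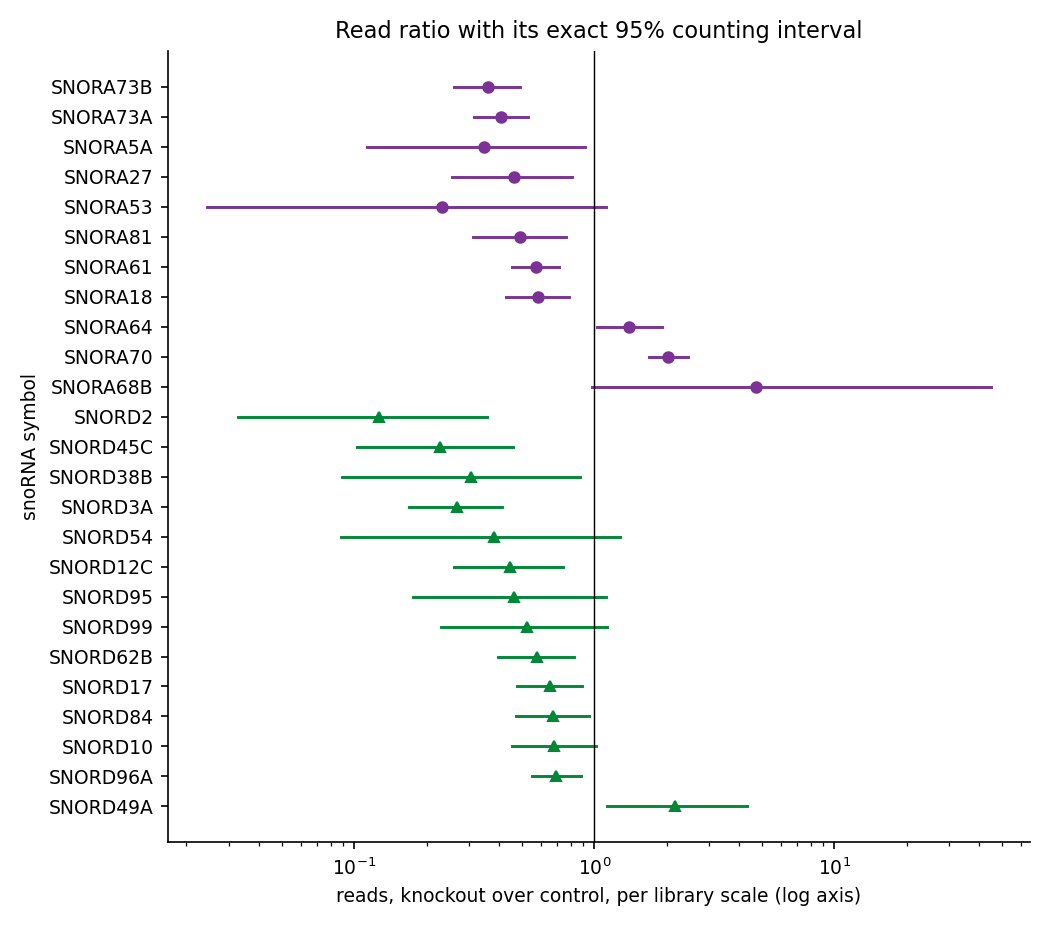
Ratio of reads, knockout over control (log axis), with its exact 95% counting interval for the 25 called members that have a knockout read; circles are SNORA and triangles SNORD. The intervals of SNORA73A, SNORA73B, SNORD2, SNORD45C and SNORD3A end well below 1, and those of SNORD10 and SNORA68B reach across it.

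Of the 9 members that are known for ribosomal RNA processing, 3 were lower (33.3%) and none was higher, against 8.67% and 9.06% of all genes. Among the 3, SNORA73A and SNORA73B share the host RCC1 and were identical at 93.2% of aligned positions, so their calls are not independent. SNORA73A and SNORA73B, known together as U17 or E1, take part in the cuts that release 18S rRNA. SNORA73A (chr1:28507366-28507571, plus strand) stood at 49.9 and 52.3 TPM in the controls and 26.2 and 16.3 TPM in the knockouts. SNORA73B (chr1:28508559-28508762, plus strand) was at 40.7 and 38.3 TPM against 17.4 and 11.3 TPM. The knockouts of both lay far below the controls, with log2 fold changes of -1.26 ± 0.23 (SE, adjusted p = 0.0310) and -1.43 ± 0.21 (adjusted p = 0.0224), and with 302 and 223 reads they were among the best counted members. SNORD3A, a copy of U3, which binds the precursor of 18S rRNA and has a promoter of its own, stood at 5.09 and 9.41 TPM in the controls and 1.39 and 2.47 TPM in the knockouts (log2 fold change -1.47 ± 0.34, adjusted p = 0.0480). SNORD3A was called in 4 of 13 alternatives, and its log2 fold change was -1.85 without control 1 and -1.08 without control 2, where it did not pass (adjusted p = 0.103 and 0.181). Its 36 and 69 control reads and 9 and 18 knockout reads were counted over a model of 699 bases (chr17:19188016-19188714, plus strand), whereas its RefSeq entry has 217 bases, so reads outside the mature U3 may be included.

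Other processing snoRNAs had few reads. SNORA63, or E3, pooled over 7 copies, had 29, 36, 24 and 12 reads in control 1, control 2, knockout 1 and knockout 2 and did not pass the test (log2 fold change -0.61, adjusted p = 0.210). None of the 5 members of the U14 family passed: SNORD14A had 12, 7, 5 and 1 reads, SNORD14B 10, 23, 15 and 15, SNORD14C 4, 14, 3 and 19, SNORD14D 3, 7, 6 and 0, and SNORD14E 3, 2, 4 and 2. Copies of the family thus showed no common order of the libraries. SNORD118 (U8), SNORD22 (U22), SNORD3C and SNORD3D were listed at 0 in all libraries, and SNORD13 (U13) had 1 read in knockout 2.

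Of the 8 SNORA members with the highest mean TPM, SNORA61, SNORA73A and SNORA18 were lower, SNORA64 was higher and the other four did not pass. SNORA40 had the highest mean level of the class at 68.1 TPM, with 78.4 and 91.5 TPM in the controls and 60.7 and 41.9 TPM in the knockouts, and did not pass the test (adjusted p = 0.0633). SNORA61 (chr1:28579764-28579893, minus strand), with a mean of 66.8 TPM, was at 85.9 and 83.6 TPM against 57.2 and 40.6 TPM (log2 fold change -0.80 ± 0.17 SE, adjusted p = 0.0423). SNORA18 was at 45.7 and 45.5 TPM against 27.8 and 25.4 TPM, a log2 fold change of -0.76 ± 0.09 (adjusted p = 0.0165). All 3 had both knockouts below both controls, and in all 3 the knockouts differed by more than the controls did. SNORA16A (46.9 and 45.2 against 41.7 and 28.7 TPM), SNORA8 (44.1 and 28.8 against 23.3 and 22.1 TPM) and SNORA52 (32.5 and 26.3 against 37.8 and 36.5 TPM) did not pass. Of the less abundant ones, SNORA81 was at 19.99 and 17.1 TPM against 10.3 and 8.09 TPM (adjusted p = 0.0282). SNORA27 was at 14.1 and 18.9 TPM against 5.99 and 9.14 TPM (adjusted p = 0.0484). SNORA5A was at 8.11 and 4.98 TPM against 2.41 and 2.15 TPM (adjusted p = 0.0412). SNORA53, with 5, 4, 1 and 1 reads, and SNORA20 complete the 9 that were lower.

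The 3 SNORA members that were higher differed in what their values rest on. SNORA64 (chr16:1962973-1963106, minus strand) stood at 26.6 and 27.0 TPM in the controls and 37.0 and 38.0 TPM in the knockouts, from 36, 38, 46 and 53 reads. The replicates were close and the groups did not overlap, and the log2 fold change was 0.47 ± 0.08 (SE; adjusted p = 0.0297). SNORA70 was at 2.25 and 2.80 TPM against 4.62 and 5.61 TPM, with the most reads of any member (76, 98, 143 and 195). That symbol pools 27 copies with 3338 bases in all, so its reads, 2.03 times as many in the knockouts (95% counting interval 1.69 to 2.45), cannot be assigned to one locus. SNORA68B had 1 and 1 reads in the controls, against 5 and 4 in the knockouts.

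Of the 8 SNORD members with the highest mean TPM, SNORD96A, SNORD62B and SNORD84 were lower, and so were SNORD17 and SNORD10, which also had over 100 reads. SNORD96A (chr5:181241814-181241892, minus strand), with the highest mean of all members at 94.8 TPM, stood at 123 and 101 TPM in the controls and 75.03 and 80.2 TPM in the knockouts (log2 fold change -0.52 ± 0.11 SE, adjusted p = 0.0438). SNORD62B (chr9:131490486-131490571, plus strand) was at 48.3 and 54.3 TPM against 30.1 and 29.01 TPM (adjusted p = 0.0175), and SNORD84 (chr6:31541101-31541178, minus strand) at 59.6 and 48.9 TPM against 37.3 and 35.7 TPM (adjusted p = 0.0427). SNORD17 (chr20:17962710-17962946, minus strand), a long box C/D snoRNA of 237 bases, was at 24.2 and 21.7 TPM against 14.6 and 15.4 TPM (adjusted p = 0.0325), and SNORD10 (chr17:7576811-7576952, plus strand) at 23.7 and 21.5 TPM against 15.9 and 14.9 TPM (adjusted p = 0.0390). In these 5 the knockouts were 1.44-fold to 1.74-fold below the controls, and no library of one group reached the other. SNORD36A (mean 66.0 TPM), SNORD83B (51.7), SNORD83A (51.5), SNORD104 (47.1), SNORD43 (44.5) and SNORD89 (36.3) did not pass. SNORD83B, for example, stood at 41.4 and 61.5 TPM in the controls and 63.7 and 40.2 TPM in the knockouts, so the groups overlapped fully.

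SNORD2 and SNORD45C had the lowest log2 fold changes of the called SNORD members, and they had fewer reads. SNORD2 (chr3:186784796-186784864, plus strand) stood at 32.9 and 13.8 TPM in the controls and 3.12 and 2.78 TPM in the knockouts, from 23, 10, 2 and 2 reads. Its log2 fold change of -2.51 ± 0.40 (SE, adjusted p = 0.0262) was the lowest of all 30 called members, and its read ratio was 0.127 with a 95% counting interval of 0.0326 to 0.357. SNORD45C (chr1:75787072-75787150, plus strand) was at 37.5 and 19.3 TPM against 6.82 and 6.07 TPM (log2 fold change -1.91 ± 0.32, adjusted p = 0.0277). The controls of both differed more than the knockouts did, yet both knockouts lay below either control. SNORD12C (chr20:49278940-49279028, plus strand) was at 26.7 and 32.1 TPM against 14.5 and 11.9 TPM (log2 fold change -1.10 ± 0.15, adjusted p = 0.0207). SNORD38B, with 9, 8, 2 and 3 reads, had a log2 fold change of -1.49. SNORD54, with 5, 6, 2 and 2 reads, had one of -1.15. SNORD95, with 9, 9, 3 and 5 reads, had one of -1.02, and SNORD99, with 10, 12, 5 and 6 reads, one of -0.85. These 4 rest on small numbers in every library. SNORD49A (chr17:16440036-16440106, plus strand) was the SNORD member that was higher, at 9.74 and 10.7 TPM against 21.2 and 23.0 TPM (log2 fold change 1.04 ± 0.11, adjusted p = 0.0155), from 7, 8, 14 and 17 reads.

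Nearly all members lay inside a host gene. On the same strand 154 members had a host in GENCODE release 29, of which 131 had a protein-coding one. SNORD3A and SNORA11F had none, and 4 symbols were pooled over several loci. Of the members at a single locus, 75 lay wholly inside an annotated exon of another gene on the same strand, 14 partly and 67 outside every such exon. The first kind had a median of 55 reads and the last of 16. Of those wholly inside 14 of 75 were lower (18.7%), with a median log2 fold change of -0.37, and of those outside 10 of 67 were lower (14.9%), with a median of -0.18. How the counting treated a read that fits a snoRNA and an exon of its host is not given in the sources used here, and such a read may stem from unspliced or alternatively spliced host RNA. Whether these reads come from mature snoRNA was not tested. In polyadenylated RNA, fewer mature snoRNAs and less host RNA that contains the snoRNA cannot be told apart.

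Host genes and their members often received different calls, and the difference between a member and its host was not tested. Of the 85 hosts tested 20 were lower (23.5%) and 4 higher (4.71%), with a median log2 fold change of -0.12, against 8.67%, 9.06% and -0.06 for all genes tested. Of the 22 members called lower with a tested host, the host was lower for 6, higher for 2 and past the threshold in neither direction for 14. The 14 include SNORA20, SNORD93, SNORD87, SNORD19C and SNORD53, which had no knockout read and for which a difference was not detectable. They reached the level through the controls alone, as did SNORA53 among the 6. The counts of 14 and 6 thus partly reflect the choice by level. Across the 85 members with at least 20 reads and a tested host, which share 48 hosts, Pearson's r between the log2 fold changes of member and host was 0.217. Those points share the 4 libraries and many share a host, so the value is a description. Of the 148 members with a tested host, 81 had a lower log2 fold change than the host.

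**Figure D5:**
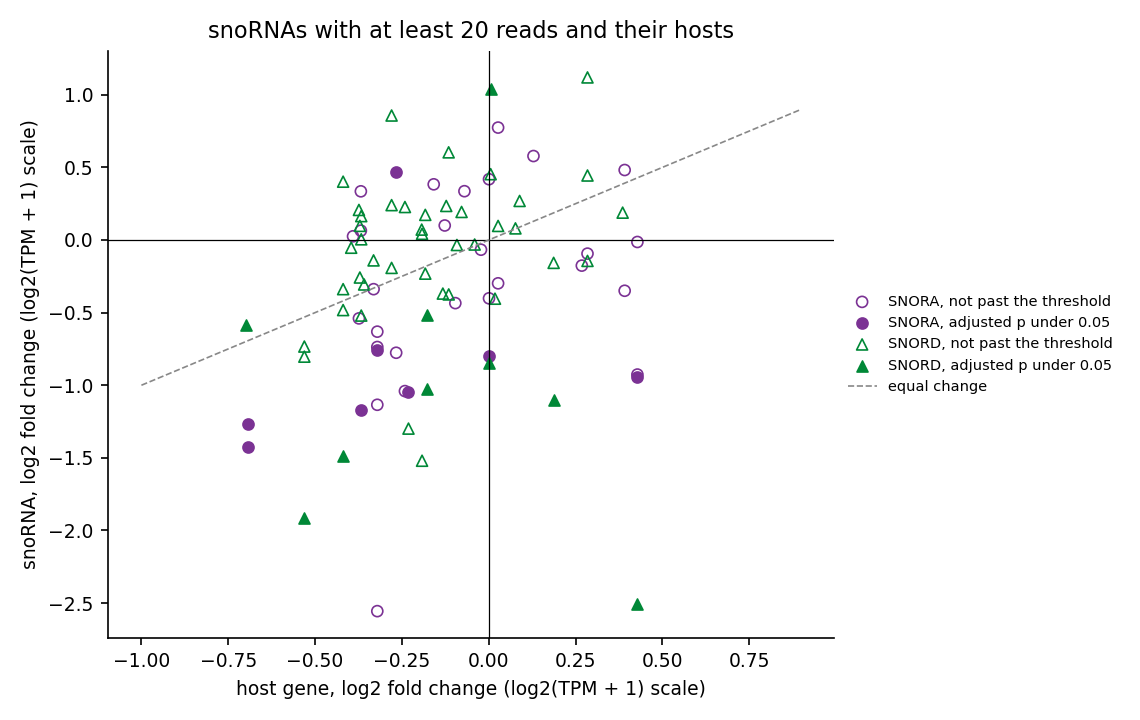
Log2 fold change of members with at least 20 reads (vertical axis) against that of the host gene (horizontal axis), both on the log2(TPM + 1) scale; the dashed line marks equal change and filled symbols passed the threshold. SNORD2 and SNORA81 stand below 0 to the right of 0, since their host EIF4A2 was higher.

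In some loci host and members were lower together. RCC1, the nucleotide exchange factor of the GTPase Ran, contains SNORA73A and SNORA73B. It stood at 116 and 110 TPM in the controls and 73.4 and 65.5 TPM in the knockouts (log2 fold change -0.69 ± 0.09, SE, adjusted p = 0.0177). The noncoding host SNHG3, which overlaps RCC1 there, was at 92.5 and 90.5 TPM against 61.9 and 47.8 TPM (log2 fold change -0.74, adjusted p = 0.0329). The 2 snoRNAs together had 188 and 195 reads in the controls, against 83 and 59 in the knockouts, a ratio of 0.388 (95% counting interval 0.318 to 0.471). RABGGTB, a subunit of the enzyme that attaches lipid to Rab proteins, was at 103 and 106 TPM against 76.3 and 68.2 TPM (log2 fold change -0.53, adjusted p = 0.0252). Its SNORD45A, SNORD45B and SNORD45C had 113 and 53 reads in the controls, against 32 and 38 in the knockouts, a ratio of 0.441 (0.329 to 0.587), and SNORD45C alone passed the test. That interval covers counting error only and leaves out the wide difference between the controls. SNX5, a sorting nexin and the host of SNORD17, was at 93.4 and 94.1 TPM against 61.5 and 53.6 TPM (log2 fold change -0.70, adjusted p = 0.0194). On chromosome 1, which holds RCC1 and RABGGTB, 6 of 20 members were lower (30%) with a median log2 fold change of -0.69, and of all 1603 tested genes there 10.5% were lower with a median of -0.17.

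In other loci members were lower while the host was higher or did not pass the test. EIF4A2, an RNA helicase of translation initiation, stood at 154 and 167 TPM in the controls and 214 and 218 TPM in the knockouts (log2 fold change 0.43 ± 0.07, SE, adjusted p = 0.0267). Its SNORD2, SNORA81, SNORA63B and SNORA4 together had 101 and 72 reads in the controls, against 43 and 42 in the knockouts, a ratio of 0.514 (95% counting interval 0.392 to 0.670). SNORD2 and SNORA81 were thus lower while the host was higher, and SNORA63B (26, 18, 7 and 15 reads) and SNORA4 (16, 12, 17 and 10 reads) did not pass. TAF1D, a subunit of the RNA polymerase I factor SL1, had the most members of any host. Its 8 members, among them SNORA40, SNORA18 and SNORA8, had 294 and 254 reads against 161 and 129, a ratio of 0.554 (0.479 to 0.639), and SNORA18 passed. TAF1D itself was at 47.6 and 39.2 TPM against 34.1 and 34.7 TPM, with both knockouts below both controls. It did not pass (log2 fold change -0.32, adjusted p = 0.118). The noncoding host SNHG12 was at 32.5, 30.8, 31.3 and 32.0 TPM in control 1, control 2, knockout 1 and knockout 2. Its SNORA61, SNORA16A, SNORA44 and SNORD99 had 201 and 199 reads against 141 and 115, a ratio of 0.670 (0.570 to 0.785), and SNORA61 and SNORD99 passed. RACK1, a scaffold protein of the ribosome, was at 1763 and 1695 TPM against 1564 and 1492 TPM and did not pass (adjusted p = 0.102). Here too both knockouts lay below both controls, and its SNORD95 and SNORD96A had 107 and 93 reads against 58 and 71. ZFAS1, the noncoding host of SNORD12C, was at 10.03, 10.7, 11.5 and 12.4 TPM and did not pass either (adjusted p = 0.295).

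In many other hosts, NOP56, RPL3, RPL7A and RPS2 among them, the summed reads of the members did not differ beyond counting error. NOP56, itself a core protein of box C/D snoRNPs, stood at 183 and 190 TPM in the controls and 233 and 221 TPM in the knockouts (adjusted p = 0.0476). Its 5 members had 84 and 78 reads against 87 and 82, a ratio of 1.09 (95% counting interval 0.875 to 1.362). RPL3, a ribosomal protein gene, was lower (log2 fold change -0.37, adjusted p = 0.0280), while its SNORD43, SNORD83A and SNORD83B had a read ratio of 0.955 (0.799 to 1.14). RPL7A was lower as well (log2 fold change -0.28, adjusted p = 0.0437), and its 4 members, SNORD36A among them, had a ratio of 1.11 (0.868 to 1.42). Within RPS2 the 2 members parted: SNORA64 was higher and SNORA10, with 28.2 and 24.4 TPM against 11.3 and 19.5 TPM, had a log2 fold change of -0.78 (adjusted p = 0.101). The difference between them was not tested. The host of SNORD49A, which was higher, is SNHG29, and it was at 96.9, 101, 89.3 and 111 TPM. The hosts of 3 members that were lower gave no test of their own. DDX39B, the host of SNORD84, was listed at 0.04998 to 0.223 TPM. For SNORD10 the host was taken to be AC016876.2, the containing gene with the highest listed TPM. It was at 0.651, 0.816, 0.402 and 0.253 TPM in control 1, control 2, knockout 1 and knockout 2. EIF4A1, at the same locus, was listed at 0 in all libraries and so ranked below AC016876.2. The choice of host for SNORD10 thus rests on these listed levels. DDX39B and EIF4A1 each overlap a readthrough gene, ATP6V1G2-DDX39B and SENP3-EIF4A1. The host of SNORD62B, PRRC2B, was not analysed here.

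The share of snoRNP protein genes called was not above that of all genes tested, 17.7%, and with so few genes it does not set them apart. Of 38 tested genes for core proteins, assembly factors and enzymes of snoRNA maturation and turnover, 3 were higher and 2 lower (limma adjusted p under 0.05), against 9.06% and 8.67% of all genes. Of the 4 box C/D core proteins NOP56 was higher, and so was SNU13, the protein that first binds the box C/D fold, at 90.5 and 90.5 TPM in the controls and 117 and 137 TPM in the knockouts (log2 fold change 0.48, adjusted p = 0.0380). FBL, the methyltransferase fibrillarin (log2 fold change -0.13), and NOP58 (-0.07) did not pass. None of the 4 H/ACA core proteins passed: DKC1, the pseudouridine synthase dyskerin, had a log2 fold change of -0.04, GAR1 of -0.03, NHP2 of -0.17 and NOP10 of 0.18. At an unadjusted p under 0.05, 3 of the 38 genes were higher and 9 lower. Among 13 assembly factors RUVBL1, a helicase of the R2TP complex, was higher at 62.0 and 67.1 TPM against 80.2 and 88.4 TPM (adjusted p = 0.0491). Among 17 genes of maturation and turnover the exonuclease XRN2 was lower at 99.0 and 109 TPM against 81.9 and 80.6 TPM (adjusted p = 0.0460). COIL, the Cajal body protein coilin, was lower at 29.9 and 29.2 TPM against 21.1 and 22.6 TPM (adjusted p = 0.0437). All 5 calls were lost with a constant variance prior.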

How the data were processed

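Polyadenylated RNA of 2 control and 2 DEK knockout libraries was compared. The values are TPM per gene symbol as deposited by the authors in 1 table, where the column of each library sums to 1000000. Per the submitters' processing notes, the tools were STAR 2.7.8a, featureCounts 2.0.1, cutadapt 1.18 and DESeq2 1.36.0, on hg38. Annotation, strand setting and handling of reads shared by overlapping genes are not given in those sources, so a snoRNA cannot be told apart from overlapping or antisense RNA. Groups and replicate numbers come from the sample titles.

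TPM multiplied by the GENCODE release 29 length of a symbol, pooled over its copies, fell on whole multiples of a step in each library, which gave read numbers for all 160 members (tolerance 0.02). In Python 3.11.15 with pandas 2.3.3 and scipy 1.17.1, exact 95% intervals were computed from them; they cover counting error only. Positions, hosts and sequences are from that release, and identity between snoRNAs was aligned with Biopython 1.88. Where several genes on the same strand contained a snoRNA, the one with the highest mean TPM was taken as its host.

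The 15815 genes that reached 1 TPM in 2 or more libraries were fitted as log2(TPM + 1) with limma 3.58.1 in R 4.3.3, with a variance prior that follows expression. The p-values were adjusted by Benjamini and Hochberg over all these genes, with a threshold of 0.05. The procedure was tested on simulated data. Log2 fold changes refer to log2(TPM + 1) and understate the change of low genes. Fold values are ratios of mean TPM.

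The members and lists were chosen with earlier results of these data known. Named are every called member, the 8 SNORA and 8 SNORD members with the highest mean TPM and with the most reads, the snoRNAs of rRNA processing, the 2 members and 2 non-members nearest the level rule, DEK, core snoRNP proteins and called snoRNP genes, and hosts. NOPCHAP1 of the assembly list was not analysed here. A sequence that the rule on reads would show is withheld and is not reported here. Alternatives covered the pseudocount (0.1 and 5), the filter, the scaling, the variance prior, a replicate block and leaving out each library. Chosen after seeing the data were removal of the GC trend, members with at least 20 reads, and members off chromosomes 1, 7 and 22.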

Additional observations from a re-analysis of the deposited data

How the results depend on the processing

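The numbers of calls depended on the processing, and each of the 30 called members was called in 3 to 11 of up to 13 alternatives. All 30 kept their sign in every alternative run. Since the groups did not overlap in any of the 30, this was largely fixed in advance and is no test of the directions. SNORD93 was called in 3 of 11, SNORD3A in 4 of 13 and SNORA27 in 5 of 13. The sums moved little. Over leaving out each library, the SNORA ratio ran from 0.654 to 0.783 and the SNORD ratio from 0.784 to 0.859. As reads per depth the ratios were 0.775 and 0.791, and with median ratio scaling 0.739 and 0.843.

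Without a filter on low values (31270 genes tested), limma called 0 SNORA lower, 0 SNORA higher, 0 SNORD lower and 0 SNORD higher, with 13, 4, 21 and 1 at an unadjusted p under 0.05. Among all genes 0 were then lower and 26 higher. A constant variance prior called 5, 1, 9 and 1, and 571 lower and 866 higher of all 15815 genes tested. Off chromosomes 1, 7 and 22, 5 of 47 SNORA members were lower, against 9 of 65 on all chromosomes. Of the SNORD members there, 13 of 82 were lower, against 17 of 95. Leaving out each library gave 0 to 18 SNORA lower, 0 to 3 SNORA higher, 0 to 30 SNORD lower and 0 to 3 SNORD higher. The calls were fewest without control 1 (0 in all, 44 members at an unadjusted p under 0.05) and without control 2. In these fits the lone library is assumed to vary like the other group. The cause was not tested.

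The replicate numbers come from the titles alone, and deviations of same-numbered libraries correlated at r = 0.0989 over 15815 genes. With the replicate block, 13 SNORA and 22 SNORD members were lower and 3 SNORA and 2 SNORD members higher, and 1 snoRNP protein gene was lower.

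For the snoRNP protein genes (2 lower, 3 higher), the lower count was 1 with median ratio scaling, 0 with quantile normalization, 0 with a constant variance prior and 0 without a filter. The higher count was 1 with quantile normalization, 0 with a constant variance prior, 0 without a filter and 1 with the GC trend removed. At an unadjusted p under 0.05 in limma, 8 or 9 were lower and 3 higher in those fits, apart from 4 lower with the GC trend removed. Leaving out 1 library changed these counts too, as it did among all genes. Depth is a limit for members with few reads: 31 of 160 had under 10.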

Other observations

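The members can also be grouped by the kind of host. SNORA73A and SNORA73B, both called lower, count here as members of the protein-coding RCC1, although the noncoding SNHG3 contains them too. The 127 members in tested protein-coding hosts had a median log2 fold change of -0.26, with 17 called lower (13.4%), and the 21 in noncoding hosts a median of 0.00, with 5 called lower (23.8%), against 8.67% of all genes. The medians and the shares called thus run in opposite directions, and the difference was not tested. The 5 include SNORD87 and SNORD93, and the 17 include SNORA20, SNORA53, SNORD19C and SNORD53. All of these reached the level through the controls alone, so the shares partly reflect the choice by level. GAS5, at 81.8, 79.9, 86.1 and 85.5 TPM in control 1, control 2, knockout 1 and knockout 2, and SNHG1, at 38.1, 41.2, 44.2 and 44.8 TPM, are noncoding snoRNA hosts that did not pass the test.

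On chromosome 22, where 71 of 390 tested genes were higher and 10 lower with a median log2 fold change of 0.22, the 4 members included no call, and their median was -0.09. Over 15640 tested genes the log2 fold change correlated with GC content at a Pearson's r of 0.267, a value across genes, which are not independent replicates. With that trend removed, 7 SNORA and 14 SNORD members were lower.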
